A study of Homo sapiens with 30 samples.

Results

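The 8 genes FAM13A, KANK1, KHDC4, GRAMD2B, NPPB, SIRT4, SLA and ZKSCAN1 were followed across all 10 groups of a study in which a culture of human intestinal cells met nanomaterials. They were chosen by their log2 changes against control at 1 h, which were below 0 after exposure, so their changes at 1 h are a description here and carry no test. They are 8 of 11963 genes measured, and 13 of the 22215 probe sets tested carry the symbol of exactly 1 of them. FAM13A has 3 probe sets, SIRT4, SLA and ZKSCAN1 have 2 each, and KANK1, KHDC4, GRAMD2B and NPPB have 1 each.

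The cells were a mixture of 75% Caco-2, a colorectal carcinoma line that matures into enterocyte-like cells, and 25% HT29-MTX, a mucus-secreting colon carcinoma line obtained with methotrexate. The layers grew for 14 days on Transwell inserts, which are porous supports with an apical and a basolateral side. Multi-walled carbon nanotubes (MWCNT) or titanium dioxide nanobelts (TiO2-NB) were then added to the apical side at 10 or 100 µg/ml for 1 or 24 h, and every array was hybridised with cRNA made out of 3 µg total RNA. The 30 arrays form 10 groups of 3, called biological replicates by the labels: at 1 h and again at 24 h, a control, MWCNT at 10 and at 100 µg/ml, and TiO2-NB at 10 and at 100 µg/ml. All groups share the same kind of co-culture, seeded from pooled flasks. The labels name several passages of both lines without tying them to arrays, so whether passage differs between arrays is unknown. Control wells were given fresh medium with no particle-free suspension named. The layer is a model of carcinoma lines only, without the immune, muscle and stromal cells of the gut wall. The labels name no scan date or batch.

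FAM13A carries a GTPase-activating domain, a fold that switches off small GTPases. KANK1 sits around focal adhesions, binds talin and liprin-β, and restrains actin assembly while tying microtubules to the cell cortex. KHDC4 is a KH-domain RNA-binding protein linked to splicing, and ZKSCAN1 is a zinc finger transcription factor with KRAB and SCAN domains. GRAMD2B holds a GRAM domain, found in proteins at contacts between the endoplasmic reticulum and the plasma membrane, and SIRT4 is a mitochondrial sirtuin that restrains glutamate and lipid use. NPPB encodes the precursor of B-type natriuretic peptide, best known as a hormone of the heart, and SLA is a Src-like adaptor best known for damping receptor signals in lymphocytes.

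Levels are log2 values from RMA, a method that makes the distributions of all arrays alike, so a change says how a transcript moved against all others. The array medians lay between 6.45 and 6.49, and arrays of the same group correlated at 0.997 or above. The epithelial label was borne out by markers: EPCAM stood at 13.11, 7 of 8 colon epithelium markers were above the typical array median of 6.47, as were 8 of 9 enterocyte markers (APOA1 at 14.07, FABP2 lowest at 5.39) and 6 of 8 goblet markers (AGR2 at 13.10, MUC2 below the median at 6.07). Of 7 measured leukocyte markers, CD14 alone was above the median (6.90) and PTPRC stood at 3.63, none of 7 cardiomyocyte markers was (MYH6 at 3.21, NPPA highest at 6.41), and 3 of 8 fibroblast and endothelial markers were (CDH5 at 3.25, LUM highest at 7.73). In bulk samples such as these, fewer cells of a type and less RNA per cell cannot be told apart.

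RefSeq (GRCh38.p14) gave 13 promoter windows, each the 250 bases before a start site, for 6 of the 8 genes. Those of FAM13A, KANK1 and KHDC4, the genes most lowered in the mean of the 4 exposed groups, are shown first, then that of SIRT4, which holds the only full cyclic AMP response element, and that of ZKSCAN1, which followed another course over time. They run 5′ to 3′ on the strand of the gene, and capitals mark motif matches on either strand. The windows of FAM13A lie at chr4:88823233-88823482 (minus strand) and chr4:89057186-89057435 (minus strand), that of KANK1 at chr9:470045-470294 (plus strand, the first of 4 windows), that of KHDC4 at chr1:155934414-155934663 (minus strand), that of SIRT4 at chr12:120291939-120292188 (plus strand, the first of 2 windows) and that of ZKSCAN1 at chr7:100015346-100015595 (plus strand).
FAM13A start 1: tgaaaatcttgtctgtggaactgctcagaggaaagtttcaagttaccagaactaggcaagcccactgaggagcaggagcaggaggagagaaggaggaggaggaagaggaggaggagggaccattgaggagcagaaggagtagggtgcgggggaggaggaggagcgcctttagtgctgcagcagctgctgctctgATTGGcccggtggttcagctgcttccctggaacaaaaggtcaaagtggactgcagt
FAM13A start 2: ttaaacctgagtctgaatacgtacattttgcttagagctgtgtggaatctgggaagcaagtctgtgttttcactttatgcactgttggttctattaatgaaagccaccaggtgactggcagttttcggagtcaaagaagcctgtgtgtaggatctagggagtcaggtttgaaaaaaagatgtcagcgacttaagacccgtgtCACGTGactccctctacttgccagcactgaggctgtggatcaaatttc
KANK1 start 1: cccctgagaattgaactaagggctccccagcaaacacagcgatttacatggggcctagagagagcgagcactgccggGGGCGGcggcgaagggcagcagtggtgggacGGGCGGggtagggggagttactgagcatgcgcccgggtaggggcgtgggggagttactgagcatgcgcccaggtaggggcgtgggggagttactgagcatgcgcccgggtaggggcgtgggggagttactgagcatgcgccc
KHDC4: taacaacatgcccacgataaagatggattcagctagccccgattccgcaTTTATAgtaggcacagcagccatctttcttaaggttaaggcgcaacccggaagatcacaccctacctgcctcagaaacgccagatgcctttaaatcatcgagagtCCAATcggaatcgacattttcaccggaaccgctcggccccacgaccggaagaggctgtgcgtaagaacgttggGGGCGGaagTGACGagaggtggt
SIRT4 start 1: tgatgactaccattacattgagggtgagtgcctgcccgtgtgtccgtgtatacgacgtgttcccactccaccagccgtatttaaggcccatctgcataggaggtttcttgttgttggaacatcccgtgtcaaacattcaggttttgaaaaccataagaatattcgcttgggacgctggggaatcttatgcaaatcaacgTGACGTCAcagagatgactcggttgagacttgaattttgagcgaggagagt
ZKSCAN1: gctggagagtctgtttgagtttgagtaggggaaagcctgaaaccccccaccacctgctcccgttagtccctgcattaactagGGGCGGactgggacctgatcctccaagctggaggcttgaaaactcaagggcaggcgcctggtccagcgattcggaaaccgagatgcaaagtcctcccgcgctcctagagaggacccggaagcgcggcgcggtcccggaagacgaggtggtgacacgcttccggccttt

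FAM13A start 1 has a CCAAT box read on the opposite strand, 56 to 52 bases before the start, and FAM13A start 2 has the E-box CACGTG, 48 to 43 bases before it. KANK1 start 1 and ZKSCAN1 have GC boxes (GGGCGG). KHDC4 has a TATA box on the opposite strand, a CCAAT box, a GC box and a short cyclic AMP response element. SIRT4 start 1 has TGACGTCA, 51 to 44 bases before the start. No motif was found in all 6 genes. Searched on both strands, CCAAT was found in 3 of the 13 windows and in 32% of all 35116 RefSeq windows of this length, GGGCGG in 3 and in 42.6%, CACGTG in 2 and in 6.34%, and TATAAA in 4 and in 10.7%. TGACGTCA was found in 1 window, of SIRT4, and in 1.65% of all windows, and its shorter form TGACG, which overlaps it, in 5 and in 21.2%. The NF-kB site was found in 1 window, of GRAMD2B, and in 8.04%. Windows of the same gene are not independent of each other. The AP-1 site TGANTCA (6.57% of windows), the FOXO site GTAAACA (2.98%), the EGR site GCGTGGGCG (0.72%), the CArG box (1.16%) and the glucocorticoid response element (0.00285%) were in none of the 13 windows. A match is a description of these letters and not a binding site.

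Where 4 values stand in a row, they are for MWCNT at 10 and 100 µg/ml and then TiO2-NB at 10 and 100 µg/ml. At 1 h, the log2 changes of the 8 genes against control lay between -1.47 and -0.03 in the 4 exposed groups. The change of -0.03, that of NPPB with TiO2-NB at 100 µg/ml, has a 95% interval of -0.25 to 0.19. Of these 32 changes, 30 were without overlap between the 3 exposed and the 3 control arrays. The exceptions were NPPB with TiO2-NB at 100 µg/ml and ZKSCAN1 with MWCNT at 10 µg/ml. Among all probe sets, the 3 exposed arrays lay below all 3 controls for 13.5% (MWCNT 10 µg/ml), 11.4% (MWCNT 100 µg/ml), 12.3% (TiO2-NB 10 µg/ml) and 13.7% (TiO2-NB 100 µg/ml). Over the 8 genes, on the probe set with the highest mean, the median change was -0.73, -0.70, -0.79 and -0.81 in that order. The medians over all probe sets were -0.01, -0.01, 0.01 and 0.00. Nothing is read from these shares, since the genes were chosen for this fall.

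**Figure D1:**
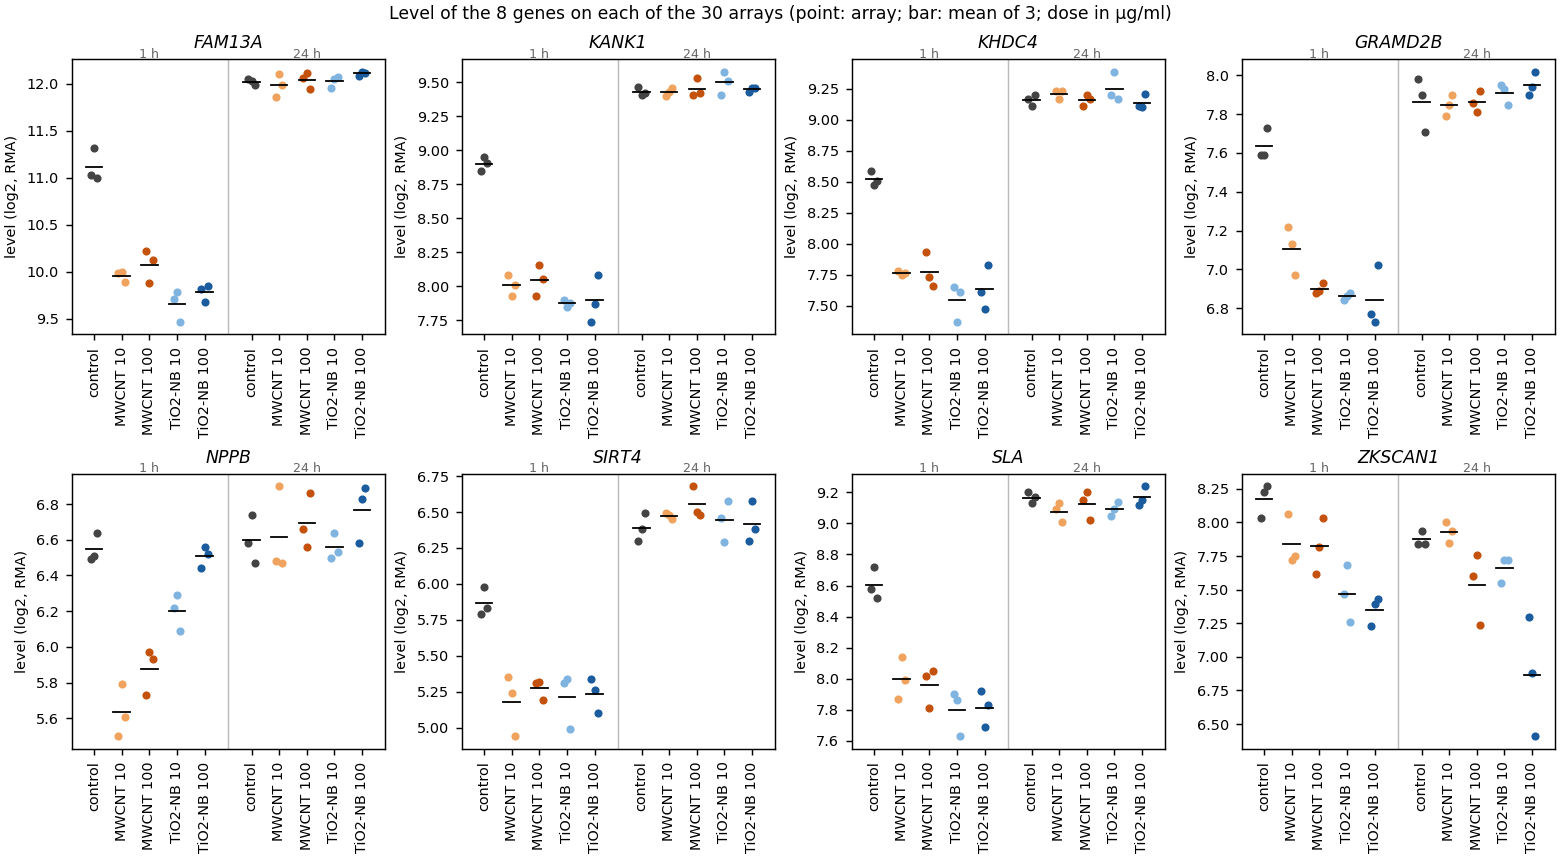
Level of each of the 8 genes on each of the 30 arrays (log2, RMA; vertical axes differ between panels and do not start at 0). Points are arrays, bars are means of 3 arrays, and the vertical line separates 1 h from 24 h. In FAM13A, KANK1, KHDC4, GRAMD2B, SIRT4 and SLA the 12 exposed arrays at 1 h lie below the controls and all 24 h groups lie together; NPPB is lowest with MWCNT at 1 h, and ZKSCAN1 is lowest with TiO2-NB at 100 µg/ml at 24 h.

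The signal of some ribosomal RNA probe sets moved with exposure at 1 h, and that of others moved little. Over the 4 exposed groups, the differences from control were 0.42 to 0.99 for the middle of 18S and 0.09 to 0.29 for its 3′ part. For 28S they were 0.34 to 0.65 at the 5′ part, -0.14 to -0.00 in the middle and -0.01 to 0.16 at the 3′ part. Probe sets of 2 messenger RNAs that serve as quality signs were checked too. Those of ACTB were higher by 0.08 to 0.16, with its 3′ part at an exact permutation p of 0.1 in each group. Those of GAPDH differed by -0.00 to 0.06. The probe set for the 5′ part of 18S ribosomal RNA was higher than control by 1.17, 1.51, 0.84 and 0.80 on the log2 scale with MWCNT at 10 and 100 and TiO2-NB at 10 and 100 µg/ml (exact permutation p = 0.1, 0.1, 0.4 and 0.1, two-sided, where 0.1 is the smallest that 3 against 3 arrays allow). Its levels were 8.61, 8.62 and 8.81 in the controls and reached 10.78 with MWCNT at 100 µg/ml, while replicate 3 of TiO2-NB at 10 µg/ml was at 8.50. With that level of each array as a covariate, FAM13A, KANK1 and KHDC4 remained lower in all 4 groups, and the values it moved by over 1.5 times are given beside their genes.

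FAM13A, the gene with a GTPase-activating domain, had the largest fall of all 11963 genes at 1 h in each of the 4 exposed groups. Its level was 11.03, 11.32 and 11.00 in the 1 h controls. With MWCNT it was 9.99, 10.00 and 9.89 at 10 µg/ml and 10.22, 9.88 and 10.13 at 100 µg/ml. With TiO2-NB it was 9.71, 9.78 and 9.47 at 10 µg/ml and 9.82, 9.68 and 9.85 at 100 µg/ml. On this probe set, the one with the highest mean, every exposed array was lower than every control, and the TiO2-NB arrays were lower than those with MWCNT. The changes were -1.16 ± 0.09 and -1.04 ± 0.09 with MWCNT and -1.47 ± 0.09 and -1.33 ± 0.09 with TiO2-NB (standard error from limma, 3 arrays a group), or 2.06-fold to 2.76-fold. The other 2 probe sets of FAM13A also fell, by -1.13, -1.10, -1.38 and -1.38 in one and by -1.24, -1.21, -1.57 and -1.50 in the other. In the latter the particles overlapped: replicate 2 of MWCNT at 100 µg/ml (9.27) lay below replicate 2 of TiO2-NB at 10 µg/ml (9.42).

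At 24 h FAM13A stood higher than in any 1 h group, controls included. The 24 h controls were at 12.05, 12.03 and 11.99, a mean of 12.02 ± 0.03 (SD, n = 3) beside 11.12 ± 0.18 in the 1 h controls, and the exposed groups had means of 11.98 to 12.11. In the order of the 10 group means, TiO2-NB at 10 and 100 µg/ml at 1 h overlapped each other, MWCNT at 10 and 100 µg/ml overlapped each other, then came the 1 h control and then the 24 h groups. Neighbours overlapped in 6 of the 9 steps of this order.

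Among genes related to FAM13A, 18 of the 23 listed (its family and other genes with a GTPase-activating domain) were measured. With TiO2-NB at 100 µg/ml, 2 rose and 1 fell at 1 h (limma, adjusted p under 0.05), and 15 did not pass. The count was 1 rise with each MWCNT dose, and 1 rise and 1 fall with TiO2-NB at 10 µg/ml. FAM13B, the nearest relative, fell by 0.32 and by 0.25 with TiO2-NB at 10 and 100 µg/ml, and with MWCNT its changes were -0.03 and -0.08, which did not pass. ARHGAP1, a GTPase-activating protein, rose by 0.16 and 0.22 with TiO2-NB and had changes of 0.15 and 0.13 with MWCNT, which did not pass. ARHGAP5 passed in no group, with changes from -0.13 to 0.13. ARHGAP29, chosen after its values were seen, rose by 0.19 and 0.18 with MWCNT and by 0.16 with TiO2-NB at 100 µg/ml.

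KANK1, the adhesion and cortex gene, ranked from 3 to 5 among all genes by its fall at 1 h. Its level was 8.85, 8.95 and 8.91 in the controls. After MWCNT it stood at 8.08, 7.93 and 8.01 at 10 µg/ml and 7.93, 8.16 and 8.05 at 100 µg/ml. After TiO2-NB it stood at 7.90, 7.85 and 7.88 at 10 µg/ml and 7.74, 7.87 and 8.08 at 100 µg/ml. All exposed arrays lay below the controls, those of TiO2-NB at 100 µg/ml overlapped both MWCNT groups, and those of TiO2-NB at 10 µg/ml lay just under them. The changes were -0.90, -0.85, -1.03 and -1.01 (standard error 0.06 each), or 1.81-fold to 2.04-fold. At 24 h the controls stood at 9.47, 9.41 and 9.42 and the exposed means lay between 9.43 and 9.50.

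Of 15 listed KANK1 relatives (the KANK family, talins, liprins and partners at the cortex), 12 were measured. Of these, 1 fell in each exposed group at 1 h and 11 did not pass. That gene was PPFIBP2, a liprin-β, which fell by 0.47, 0.44, 0.48 and 0.46 with MWCNT at 10 and 100 and TiO2-NB at 10 and 100 µg/ml (limma, adjusted p = 5.54e-06, 1.06e-05, 1.91e-06 and 3.33e-06). LIN7C, a scaffold protein of cell junctions, had changes of 0.15, 0.15, 0.01 and 0.08. PHLDB1, which anchors microtubules at the cortex, had changes of -0.01, 0.12, 0.20 and 0.28, and neither gene passed.

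KHDC4, the splicing-linked RNA-binding gene, was at 8.59, 8.47 and 8.51 in the 1 h controls. MWCNT arrays were at 7.78, 7.75 and 7.76 at 10 µg/ml and 7.93, 7.73 and 7.66 at 100 µg/ml. TiO2-NB arrays were at 7.65, 7.37 and 7.61 at 10 µg/ml and 7.61, 7.47 and 7.83 at 100 µg/ml. No exposed array reached the controls, and TiO2-NB at 100 µg/ml overlapped both MWCNT doses. The changes were -0.76, -0.75, -0.98 and -0.88 (standard error 0.08 each). At 24 h the controls were at 9.17, 9.11 and 9.20 and the exposed means between 9.14 and 9.26.

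All 20 listed KHDC4 relatives, KH-domain RNA-binding genes and splicing partners, were measured. Of them, 3, 1, 1 and 1 rose and 0, 1, 1 and 1 fell in the 4 groups at 1 h. SF1, which recognises the branch point of introns, rose in every exposed group by 0.17, 0.17, 0.20 and 0.25. KHDRBS3, a splicing regulator, fell by 0.23 and by 0.22 at 100 µg/ml of MWCNT and of TiO2-NB, and its changes of -0.10 and -0.15 at 10 µg/ml did not pass. FUBP3 rose by 0.31 with MWCNT at 10 µg/ml and did not pass in the other groups. KHSRP and QKI, chosen after their values were seen, each passed in 1 group: KHSRP rose by 0.19 with MWCNT at 10 µg/ml and QKI fell by 0.20 with TiO2-NB at 10 µg/ml.

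ZKSCAN1, the KRAB and SCAN zinc finger gene, was lower with TiO2-NB than with MWCNT at 1 h. Its level on the main probe set, the one with the higher mean, was 8.03, 8.23 and 8.27 in the controls. With MWCNT it was 8.06, 7.72 and 7.75 at 10 µg/ml and 7.62, 7.82 and 8.03 at 100 µg/ml. With TiO2-NB it was 7.47, 7.68 and 7.26 at 10 µg/ml and 7.23, 7.39 and 7.43 at 100 µg/ml. The MWCNT arrays came close to the controls or overlapped them, and the TiO2-NB arrays at 100 µg/ml lay below all of the MWCNT arrays. The changes were -0.33, -0.35, -0.71 and -0.83 (standard error 0.16 each), and with the 18S level as a covariate they were -0.64, -0.76, -0.93 and -1.04. The gene ranked 139, 121, 14 and 7 among 11963 by its fall.

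The other ZKSCAN1 probe set changed by -0.10 to 0.05 at 1 h and lay between 4.92 and 5.30 on all 30 arrays, under the array median. The 2 probe sets of ZKSCAN1 thus disagree, and the values above rest on the main one alone.

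Of 26 listed genes of the SCAN and KRAB zinc finger family, 20 were measured. At 1 h, 1, 2, 1 and 1 of them rose, and 1 fell with MWCNT at 10 µg/ml. ZNF202, a SCAN-domain repressor, rose in every group by 0.32, 0.26, 0.24 and 0.30. MZF1, a SCAN factor of myeloid cells, fell by 0.27 with MWCNT at 10 µg/ml, and ZSCAN5A rose by 0.25 with MWCNT at 100 µg/ml. Neither passed in the other groups.

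GRAMD2B, the GRAM-domain gene, was at 7.59, 7.59 and 7.73 in the 1 h controls. After MWCNT it stood at 7.22, 7.13 and 6.97 at 10 µg/ml and 6.88, 6.89 and 6.93 at 100 µg/ml. After TiO2-NB it stood at 6.84, 6.86 and 6.88 at 10 µg/ml and 6.77, 6.73 and 7.02 at 100 µg/ml. The MWCNT arrays at 10 µg/ml were between the controls and those at 100 µg/ml, with no overlap on either side. The changes were -0.53, -0.73, -0.77 and -0.79 (standard error 0.07 each). At 24 h the controls stood at 7.98, 7.90 and 7.71, overlapping the 1 h controls, and the exposed means lay between 7.85 and 7.95.

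Of 17 listed GRAMD2B relatives (GRAM-domain genes and others of membrane contact sites), 11 were measured. At 1 h, 2, 1, 2 and 1 fell and the others did not pass. ORAI3, a calcium channel subunit, fell by 0.17 and by 0.27 with MWCNT, and its changes with TiO2-NB were -0.09 and -0.15. GRAMD4 fell by 0.28 and by 0.22 with TiO2-NB, with changes of -0.15 and -0.14 with MWCNT. GRAMD1B, which moves cholesterol from the plasma membrane, fell by 0.21 and by 0.22 at 10 µg/ml of MWCNT and of TiO2-NB, and its change was -0.16 at 100 µg/ml of each.

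SIRT4, the mitochondrial sirtuin, was at 5.79, 5.98 and 5.83 in the 1 h controls on its main probe set. These and all exposed 1 h arrays lay under the typical array median of 6.47. MWCNT arrays were at 5.35, 5.24 and 4.94 at 10 µg/ml and 5.31, 5.32 and 5.19 at 100 µg/ml. TiO2-NB arrays were at 5.31, 5.34 and 4.99 at 10 µg/ml and 5.34, 5.26 and 5.10 at 100 µg/ml. The exposed groups overlapped one another throughout and none reached the controls. The changes were -0.69, -0.60, -0.66 and -0.63 (standard error 0.10 each), and those of the other probe set were -0.69, -0.61, -0.74 and -0.73. At 24 h the controls were at 6.30, 6.38 and 6.49.

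Of 11 listed SIRT4 relatives (the other sirtuins and mitochondrial enzymes), 10 were measured. In each group 1 of them rose at 1 h and 9 did not pass. It was SIRT1, the nuclear deacetylase, which rose by 0.40, 0.37, 0.24 and 0.33. DLAT, a subunit of pyruvate dehydrogenase, had changes from 0.01 to 0.14. SIRT7, a nucleolar sirtuin, had changes from 0.07 to 0.11, and neither passed.

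NPPB, the natriuretic peptide gene, was lowest with MWCNT at 1 h, at levels under the typical array median of 6.47. Its level was 6.49, 6.51 and 6.64 in the 1 h controls. With MWCNT it was 5.50, 5.79 and 5.61 at 10 µg/ml and 5.73, 5.97 and 5.93 at 100 µg/ml. With TiO2-NB it was 6.22, 6.29 and 6.09 at 10 µg/ml and 6.44, 6.56 and 6.52 at 100 µg/ml. All MWCNT arrays lay below all TiO2-NB arrays, and the TiO2-NB arrays at 100 µg/ml overlapped the controls. The changes were -0.91, -0.67, -0.35 and -0.03 (standard error 0.11 each), and the last was -0.09 with the 18S level as a covariate. Leaving out 1 array at a time gave -0.06 to 0.01 for that last value, which turned to 0.01 without control replicate 3. MWCNT was lower than TiO2-NB by -0.57 at 10 µg/ml (95% interval -0.79 to -0.35) and by -0.64 at 100 µg/ml (-0.86 to -0.41), which is a description. These intervals do not allow for the choice of the gene by its 1 h changes. The gene ranked 4 and 9 by its fall with MWCNT, and 224 and 4692 with TiO2-NB.

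Of 13 listed NPPB relatives (natriuretic peptides, their receptors and processing enzymes), 12 were measured. None passed at 1 h by limma, and 2, 2, 1 and 0 had an unadjusted p under 0.05. Over all lists of relatives, 29, 33, 27 and 28 of 116 genes did. MME, a protease that degrades natriuretic peptides, had changes from 0.01 to 0.19. NPPA, the atrial peptide, had changes from -0.12 to 0.06. CORIN, the protease that activates the atrial peptide, had changes from -0.18 to -0.04.

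SLA, the Src-like adaptor, was at 8.58, 8.72 and 8.52 in the 1 h controls on its main probe set. After MWCNT it stood at 7.87, 8.14 and 7.99 at 10 µg/ml and 8.02, 7.81 and 8.05 at 100 µg/ml. After TiO2-NB it stood at 7.90, 7.86 and 7.63 at 10 µg/ml and 7.92, 7.69 and 7.83 at 100 µg/ml. The exposed arrays overlapped across particles and doses and stayed below the controls. The changes were -0.60, -0.65, -0.81 and -0.79 (standard error 0.08 each). On the other SLA probe set they were smaller, at -0.31, -0.16, -0.43 and -0.38, and with the 18S level as a covariate its change with MWCNT at 100 µg/ml was -0.32. That change was -0.10 without control replicate 2 and -0.09 without MWCNT replicate 3. The defining leukocyte marker PTPRC was at 3.63 on average, and the mean of the 7 leukocyte markers lay between 5.08 and 5.34 on all arrays. At 1 h that mean was 5.15 to 5.18 in the controls, 5.08 to 5.20 and 5.17 to 5.31 with MWCNT, and 5.26 to 5.33 and 5.21 to 5.34 with TiO2-NB, where no array overlapped the controls. Of the 47 markers measured over all lists, the leukocyte marker CD53 rose by 0.26 with TiO2-NB at 100 µg/ml (limma adjusted p = 0.0132) and the epithelial marker KRT8 by 0.14 with TiO2-NB at 10 µg/ml. With MWCNT at 100 µg/ml the enterocyte marker APOB rose by 0.37 and the epithelial marker CDX2 fell by 0.24, and no other marker passed at 1 h. Their part in the 1 h changes was not tested.

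Of 15 listed SLA relatives (Src family kinases, adaptors and the Cbl ligases), 13 were measured. At 1 h, 1 rose with MWCNT at 100 µg/ml and none passed in the other groups by limma, where 5, 2 and 3 had an unadjusted p under 0.05. In those other groups 29, 27 and 28 of the 116 relatives over all lists did. The gene that rose was YES1, a Src family kinase, by 0.22 with MWCNT at 100 µg/ml, with changes of 0.17, 0.08 and 0.12 in the other groups. CBLB, a ubiquitin ligase that partners Src-like adaptors, had changes from -0.07 to 0.20. SYK, a kinase of immune receptors, had changes from -0.09 to 0.18, and neither passed.

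Over the 8 lists, 116 of 140 relatives were measured, and 10, 9, 9 and 9 of them passed at 1 h, which is 8.62%, 7.76%, 7.76% and 7.76%. Over all probe sets 6.46%, 7.78%, 7.84% and 8.43% passed, which is near the shares of the relatives. The relatives are counted on main probe sets alone, so these shares are over unlike sets. The median changes of the relatives were -0.01, 0.00, -0.02 and -0.00, beside -0.73, -0.70, -0.79 and -0.81 for the main probe sets of the 8 genes. Fitted on the compared groups only, 1 of 116 (0.862%) passed in each comparison, beside 0.378%, 0.504%, 0.986% and 1.21% of all probe sets in the same fits. With the 18S covariate 4 relatives (3.45%) passed with MWCNT at 100 µg/ml, beside 1.56% of all probe sets. Leaving out control replicate 2 or replicate 1 or 3 of MWCNT at 10 µg/ml left 4, 5 and 5 in that comparison, beside 3.41%, 3.2% and 4.4% of all probe sets. Without control replicate 3, 5 passed with TiO2-NB at 100 µg/ml, beside 5.55% of all probe sets. With another variance model 13, 13, 12 and 10 relatives passed (11.2%, 11.2%, 10.3% and 8.62%), more than in the main fit. Of all probe sets, 8.19%, 9.26%, 8.57% and 9.57% passed in that model.

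**Figure D2:**
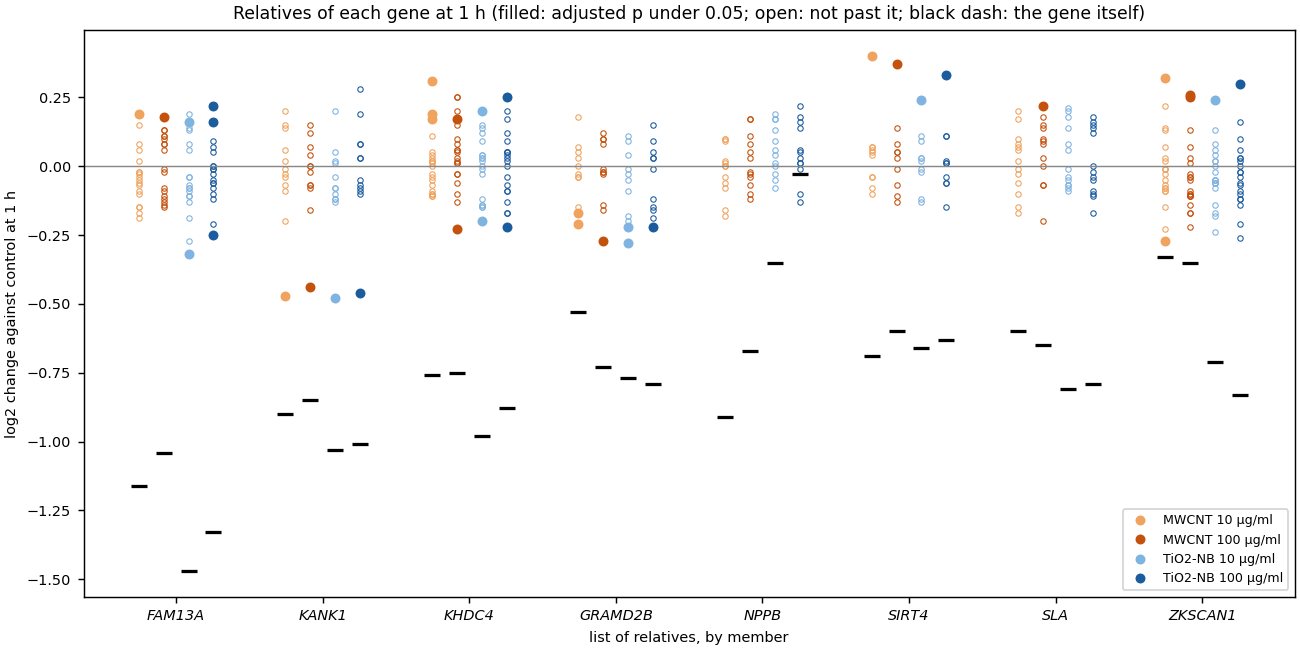
Log2 change at 1 h against control for the measured relatives of each gene, in 4 exposed groups (colours). Filled circles passed an adjusted p of 0.05 by limma, open circles did not, and black dashes are the gene itself. Every dash except that of NPPB with TiO2-NB at 100 µg/ml lies below the circles of its list, and the filled circles lie between -0.48 and 0.40.

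The rule that chose the genes used changes at 1 h, so changes at 24 h were tested, although earlier results at both times were known when the genes were chosen. For the 7 genes other than ZKSCAN1, the 28 changes of the main probe sets against the 24 h control lay between -0.09 and 0.17, and the 95% intervals reached from -0.26 to 0.39. None passed, with the lowest adjusted p at 0.554 (limma, 3 arrays a group), and falls of the size seen at 1 h for FAM13A, KANK1, KHDC4, GRAMD2B, SIRT4 and SLA lie outside those intervals. The FAM13A probe set with the lowest mean changed by -0.21 with TiO2-NB at 10 and at 100 µg/ml (95% interval -0.41 to -0.01 each). Its main probe set changed by 0.00 and 0.09 there. Neither change of -0.21 passed (limma adjusted p = 0.642 and 0.354). NPPB was at 6.58, 6.74 and 6.47 in the 24 h controls. It was at 6.48, 6.90 and 6.47 with MWCNT at 10 µg/ml and at 6.66, 6.56 and 6.86 at 100 µg/ml, which overlapped the controls. Its changes were 0.02 and 0.10 with MWCNT and -0.04 and 0.17 with TiO2-NB. The 5′ 18S signal differed from control by 0.06 to 0.40 at 24 h (exact permutation p from 0.2 to 0.8).

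**Figure D3:**
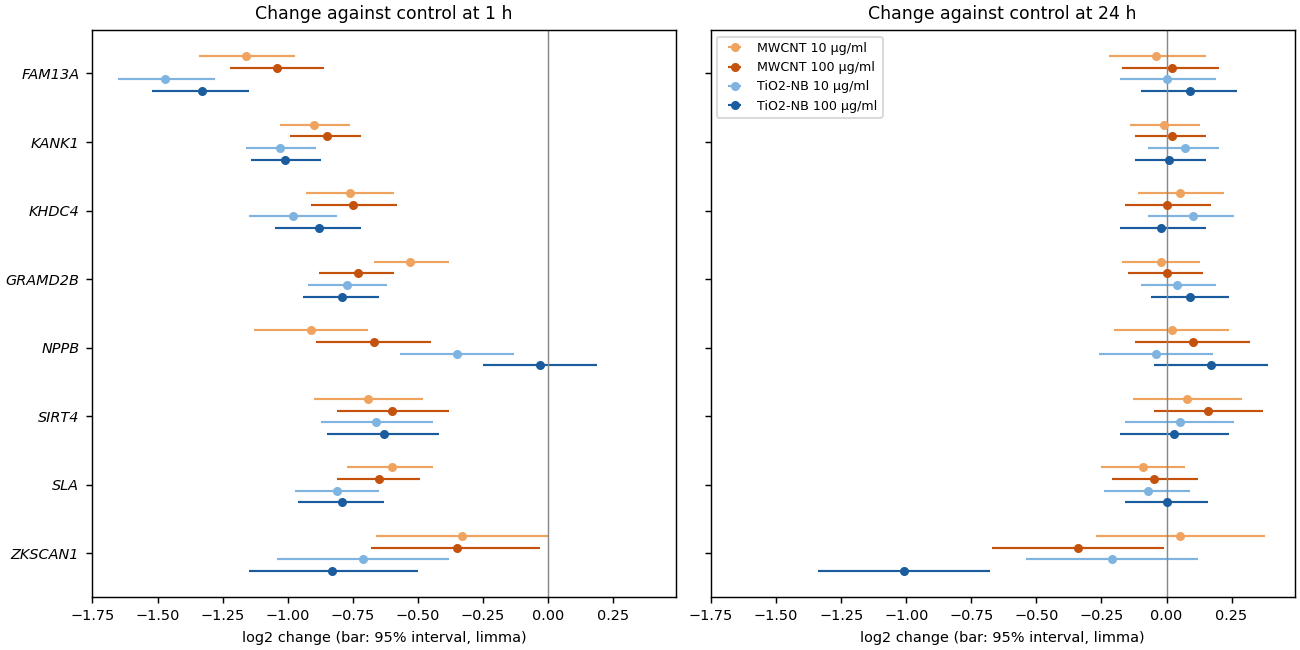
Log2 change against the control of the same time for the 8 genes (rows) in 4 exposed groups (colours), at 1 h on the left and at 24 h on the right. Points are changes and bars are 95% intervals from limma with 3 arrays a group. The 1 h intervals do not allow for the choice of the genes by their 1 h changes and are no test. At 1 h the points lie between -1.47 and -0.03, and at 24 h those of 7 genes lie between -0.09 and 0.17 while ZKSCAN1 with TiO2-NB at 100 µg/ml is at -1.01.

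With MWCNT at 10 and 100 µg/ml, none of the 13 probe sets passed at 24 h by limma, in comparisons where 0.00450% and 0.00900% of all probe sets did. None passed with TiO2-NB at 10 µg/ml, where 0.0585% did, and none for the mean of the 4 exposed groups, where 0.324% did. At an unadjusted p under 0.05 the counts were 0, 1, 2 and 2 of 13 in these 4 comparisons. None passed between MWCNT doses, where 0% of all probe sets did, or between the particles at 10 µg/ml, where 0.0315% did (1 and 0 at an unadjusted p under 0.05). The percentages are for adjusted p. The share of all probe sets at the unadjusted threshold was not counted, so nothing is read from the unadjusted counts. With TiO2-NB at 100 µg/ml, 2 of 13 passed, both lower, where 3.53% of all probe sets were called and 2.80% were called lower. They were the main probe set of ZKSCAN1 and the other one of SLA.

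ZKSCAN1 fell at 24 h with TiO2-NB at 100 µg/ml. Its level was 7.84, 7.94 and 7.84 in the 24 h controls and 7.30, 6.88 and 6.41 in that group. It was 7.55, 7.72 and 7.72 with TiO2-NB at 10 µg/ml, 7.93 ± 0.07 (mean and SD, n = 3) with MWCNT at 10 µg/ml, and 7.60, 7.76 and 7.24 with MWCNT at 100 µg/ml. The 3 arrays of TiO2-NB at 100 µg/ml were the most spread of any group, and 2 of them were lower than any other array at either time. The change was -1.01 ± 0.16, 2.01-fold lower (95% interval -1.34 to -0.68, limma adjusted p = 1.44e-04). Among 11963 genes, 30 fell at least as much, and 377 were called, 275 of them lower.

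ZKSCAN1 differed by dose and by particle at 24 h. TiO2-NB at 100 µg/ml was lower than at 10 µg/ml by -0.80, 1.74-fold (95% interval -1.13 to -0.47, limma adjusted p = 0.00469), where 1.83% of all probe sets were called. MWCNT at 100 µg/ml was higher than TiO2-NB at 100 µg/ml by 0.67 (0.34 to 1.00, adjusted p = 0.0159), where 2.88% were called, although replicate 3 of MWCNT lay below replicate 1 of TiO2-NB. Against control, MWCNT at 100 µg/ml changed by -0.34 (-0.67 to -0.01, adjusted p = 0.892) and TiO2-NB at 10 µg/ml by -0.21 (adjusted p = 0.819). MWCNT at 100 against 10 µg/ml gave -0.39 (-0.72 to -0.07, adjusted p = 0.685), which did not pass. The mean of the 4 exposed groups was lower by 0.38, with an exact permutation p of 0.167 (two-sided, 12 against 3 arrays).

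The calls on ZKSCAN1 depend on how the spread is estimated. Fitted on the compared groups only, the adjusted p (limma) was 0.0753 against control, 0.368 between doses and 0.265 between particles. Without replicate 3 of TiO2-NB at 100 µg/ml the change against control was -0.78 (adjusted p = 0.00185), that between doses -0.57 (0.0735) and that between particles 0.44 (0.205). The particle difference also missed the threshold without MWCNT replicate 1 (0.0756) or 2 (0.133), or without TiO2-NB replicate 2 (0.0509). The other ZKSCAN1 probe set was flat at 24 h as well.

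SLA gave different answers on its 2 probe sets at 24 h. On the one with the lower mean, the controls were at 7.74, 7.74 and 7.72 and TiO2-NB at 100 µg/ml at 7.48, 7.47 and 7.38, with no overlap. The change was -0.29 ± 0.08 (95% interval -0.46 to -0.13, limma adjusted p = 0.0347). On the main one, the controls were at 9.20, 9.13 and 9.17 and that group at 9.12, 9.15 and 9.24, a change with a 95% interval of -0.16 to 0.16 (adjusted p = 0.999). The call was lost without control replicate 1, 2 or 3 (adjusted p = 0.103, 0.111 and 0.0911) and without TiO2-NB replicate 2 or 3 (0.0827 and 0.203). Over all 12 exposed arrays it was lower by 0.17 (exact permutation p = 0.0396, two-sided, not adjusted over the 13 probe sets).

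**Figure D4:**
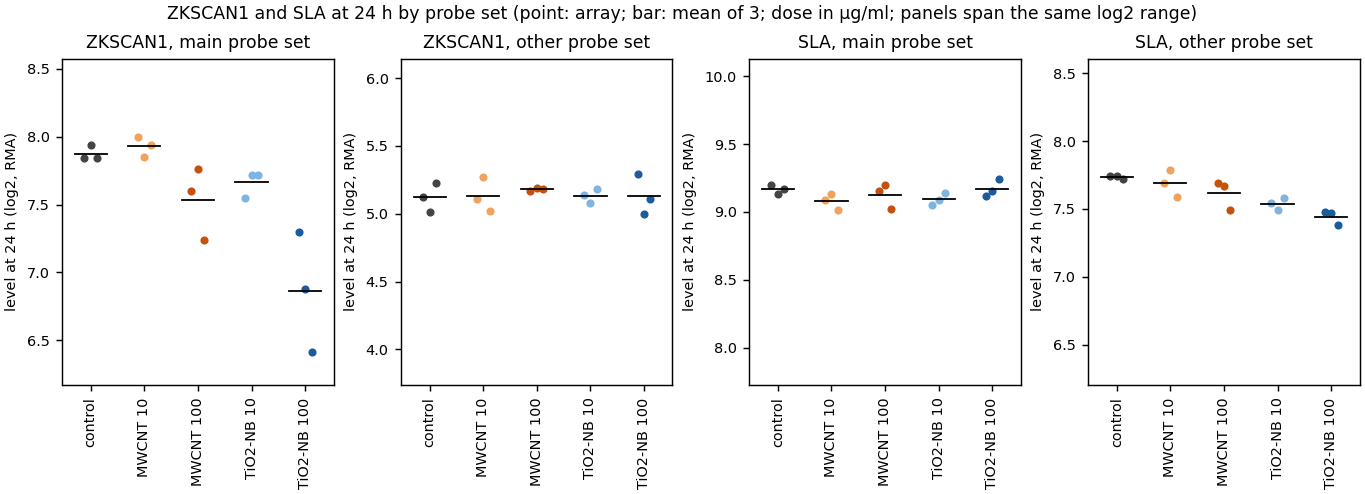
Level at 24 h on each array for the 2 probe sets of ZKSCAN1 and the 2 of SLA (log2, RMA; panels span the same log2 range and do not start at 0). Points are arrays and bars are means of 3. The main ZKSCAN1 probe set is at 7.30, 6.88 and 6.41 with TiO2-NB at 100 µg/ml while the other is flat. The other SLA probe set is at 7.48, 7.47 and 7.38 there, under its controls, while the main one is level with them.

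Among the 116 relatives, 9 were called with TiO2-NB at 100 µg/ml at 24 h, all lower, which is 7.76%. Of all probe sets, 3.53% were called and 2.80% were called lower. The relatives are counted on main probe sets, on which 275 of all 11963 genes were called lower. ZNF24, a SCAN-domain zinc finger gene of the ZKSCAN1 list, fell by 0.84 (limma adjusted p = 1.12e-06). OSBPL8, a lipid transfer protein of the contact-site list, fell by 1.10 (adjusted p = 1.49e-06) and ORAI2 by 0.55. LYN, SYK and GRB2 of the SLA list fell by 0.54, 0.39 and 0.39. ERC1 of the KANK1 list fell by 0.34, and KHDRBS3 and IGF2BP2 of the KHDC4 list fell by 0.26 each. PPFIBP2, which was lower in every group at 1 h, changed by 0.01. Beside these falls, the goblet marker MUC5AC rose by 0.33 and the leukocyte marker CD14 by 0.31 in this group and no other marker passed. The 7 leukocyte markers averaged 5.19 to 5.34 beside 5.12 to 5.26 in the controls, and a 28S ribosomal RNA probe set was lower by 0.39 (exact permutation p = 0.1). Their part in the result was not tested.

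The controls differed between the times as well. From 1 h to 24 h the control level rose by 0.90 for FAM13A, 0.53 for KANK1, 0.63 for KHDC4, 0.23 for GRAMD2B, 0.52 for SIRT4 and 0.56 for SLA, and it differed by 0.05 for NPPB and -0.30 for ZKSCAN1. These differences share the 1 h controls with the changes that chose the genes and are a description. For FAM13A, KANK1, KHDC4, SIRT4 and SLA, the 1 h controls lay between the exposed 1 h arrays and the 24 h controls with no overlap on either side. Over all probe sets, 15.3% had all 24 h controls above all 1 h controls.

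The course over the 10 groups was alike in 6 of the genes. All were chosen by their fall at 1 h, so part of this likeness is set by the choice. Over the 10 group means, the 15 pairs among FAM13A, KANK1, KHDC4, GRAMD2B, SIRT4 and SLA correlated at 0.97 to 1.00 (Pearson), as a description of groups that share the 2 control groups and the times. NPPB correlated with these 6 at 0.71 to 0.79, and ZKSCAN1 at -0.07 to -0.00. The search covered 1114 other genes with group means spanning at least 0.5 and a mean level above the lowest 1 in 3 probe sets. Those most like FAM13A were AKAP7, LIAS and SAV1 (r = 0.998 each) and PTCH1 and HBP1 (0.997 each). Those most opposed were METTL1 (-0.993), EWSR1 and NUP98 (-0.992 each). Those most like KANK1 were ANKZF1 and HBP1 (0.998 each) and PPFIBP2, CCDC28A and MXI1 (0.997 each), and the most opposed were PTPN1 (-0.994), NUP98 (-0.993) and EWSR1 (-0.992). In the mean of the 4 exposed groups at 1 h, MXI1, an antagonist of MYC, differed from control by -0.79, HBP1 by -0.48, PTCH1, the Hedgehog receptor, by -0.55 and NUP98, a nuclear pore protein, by 0.42.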

How the data were processed

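The authors deposited log2 levels, 1 for each probe set and array, summarised by RMA according to the submitters' processing notes. The RMA version is not given in the sources used here, nor is the chip definition. RMA subtracts background, quantile-normalises the arrays and summarises probes, so overall RNA amount is removed. Of 22277 probe sets, 62 controls were left out. Genes were named from the platform annotation (19064 probe sets carry 1 symbol, 1043 several and 2108 none). The probe set with the highest mean stands for a gene and is called its main probe set, which gives 11963 genes.

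In R 4.3.3 with limma 3.58.1, 10 group means were fitted over all 30 arrays (lmFit, eBayes). Tests were two-sided, with Benjamini-Hochberg adjustment over the 22215 probe sets and a call at adjusted p under 0.05. The fit was tested on simulated data. An array has no read depth, so the 3 arrays per group limit the precision.

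The 8 genes and all lists were chosen with earlier results of these data known. All 8 are named, with up to 3 relatives per list by the smallest p of an F-test at 1 h, and for FAM13A and KANK1 the 5 most and 3 least correlated genes. The alternatives were another set of arrays in the fit, a replicate block, a low-level filter, a second normalisation, another variance model, array weights, the 18S level as a covariate, a fit with 1 probe set for each gene, and the omission of each array in turn.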

Additional observations from a re-analysis of the deposited data

Results flagged for a closer look

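ZKSCAN1, on its main probe set, differed between the particles at 24 h and 100 µg/ml: its change against control was 0.67 higher on the log2 scale with MWCNT than with TiO2-NB (95% interval 0.34 to 1.00, limma adjusted p = 0.0159, 3 arrays a group). The 2 exposures share their control, so the difference is that between the exposed groups. It kept its direction in every alternative fitted, with values from 0.44 to 0.89, but the call was lost in 5 of them: on the compared groups only (adjusted p = 0.265), without MWCNT replicate 1 (0.0756) or 2 (0.133), and without TiO2-NB replicate 2 (0.0509) or 3 (0.205). On the other ZKSCAN1 probe set the difference was 0.04 (95% interval -0.12 to 0.21), which did not pass (adjusted p = 0.893).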

How the results depend on the processing

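For the 8 genes at 24 h, the counts of 0 called probe sets (both MWCNT doses, TiO2-NB at 10 µg/ml, the mean of the exposed groups, MWCNT between doses, and MWCNT against TiO2-NB at 10 µg/ml) were 0 in every alternative. With TiO2-NB at 100 µg/ml the count of 2 was 1 when only the compared groups were fitted (SLA without ZKSCAN1), 1 with 1 probe set per gene, and 1 to 2 when an array was left out. The count of 1 between TiO2-NB doses and that of 1 between particles at 100 µg/ml were each 0 on the compared groups only and 0 to 1 when an array was left out. For relatives at 1 h, fits on the compared groups gave 1 in each comparison, the 18S covariate gave 4 with MWCNT at 100 µg/ml, and leaving out an array gave 4 to 9 with MWCNT at 10 µg/ml, 7 to 12 with MWCNT at 100 µg/ml, 6 to 11 with TiO2-NB at 10 µg/ml and 5 to 10 with TiO2-NB at 100 µg/ml. Calls over all probe sets fell in the same fits: on the compared groups only, 84, 112, 219 and 269 passed in place of 1435, 1729, 1742 and 1872, and with the 18S covariate 347 passed with MWCNT at 100 µg/ml. With another variance model the counts were higher, at 13, 13, 12 and 10 relatives and 1820, 2057, 1903 and 2127 of all probe sets. Fewer arrays enter the fits on the compared groups and those that leave an array out. No called value changed sign.

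Replicate numbers were checked as pairs. Deviations of exposed and control arrays with the same number correlated at -0.12 to 0.21 over 24 pairs, 5 of them over 0.1. No comparison had all its pairs over 0.1, and the main fit does not treat the arrays as paired. The check cannot tell whether arrays share a passage or a day of processing. With the replicate block the count with TiO2-NB at 100 µg/ml at 24 h was 2 and those between doses and particles were 1 and 1, while relatives at 1 h numbered 8, 9, 8 and 7.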
